A study of Mus musculus with 2 samples.

Results

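Noncoding cassette exons are exons that can be spliced in or skipped and that overlap no annotated coding sequence on their strand. They were chosen by measured values: each was longer than 30 nt, had at least 20 reads on its exon trio (the exon and its 2 flanking exons) in each library, and had a percent spliced in (PSI, the percent of transcripts that include the exon) of 5 to 95 in at least 1 library. By this rule 959 of the 3790 cassette exons with the same reads and PSI were noncoding, in 778 annotated genes. N2A, an established mouse neuroblastoma line, was transfected with Lipofectamine complexes of a plasmid-borne short hairpin RNA, either shControl, a control hairpin, or shptbp1, which targets the mRNA of the splicing regulator Ptbp1. RNA was collected 3 days later from the whole transfected culture, so cells that took up no plasmid are part of each sample. Each condition was 1 library, so no difference between the conditions could be tested, and the 95% intervals given here cover the counting of reads only.

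Exons upstream of the start codon belong to the 5′ untranslated region. Their inclusion leaves the protein sequence as it is and alters the leader that ribosomes scan, which can add upstream start codons or change folding and stability. A noncoding exon between coding exons is different: if it brings in a stop codon or shifts the reading frame, translation ends early, and when that stop lies well before the last exon junction the transcript is a substrate of nonsense-mediated decay. Such exons are called poison exons, and many splicing factor genes use one to limit their own expression. Ptbp1 is an RNA-binding protein that prefers pyrimidine-rich sequence and often represses exons when it is bound upstream of them.

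Of the 959 exons, 514 (413 genes) lay upstream of the first coding base of their gene and 359 (326 genes) lay between coding exons, that is within the span from the first to the last coding base. Both flanking exons held coding sequence for 328 of the 359. Another 14 lay after the stop codon, 54 were in genes with no annotated coding sequence, and 18 were in no annotated gene, of which 6 were on unplaced contigs whose coding status could not be judged. Among the members, 122 overlapped another member in 56 clusters and share reads, and 122 genes held more than 1 member.

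Trio reads of single members ran from 20 to 118494 with shControl and from 20 to 86083 with shptbp1, with medians of 382 and 344. Reads on the 3 junctions had medians of 118 and 106, against 210 and 190 over all assayed cassette exons, so single values of noncoding exons carry the wider counting error. The log2 ratio of Ptbp1 FPKM (shptbp1 over shControl, a difference in level) was -1.61, with Cufflinks bounds of -1.68 to -1.54. Ptbp2, its paralog of neurons, had a log2 ratio of 0.93 (0.78 to 1.08). Of the 10 neuroblastoma or neuronal markers matched, 6 lay above the median gene in both libraries, Uchl1 and Hand2 among them, while none of the 3 fibroblast, 1 astrocyte and 2 microglia markers did.

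The reading frame bears on whether the name poison exon applies. For 317 of the 359 exons between coding exons, an annotated protein-coding transcript joined the flanking exons and could be translated with the exon put in. An in-frame stop arose inside the exon in 225 of them (71.0%), at a median position of 31 nt into the exon. The frame was shifted without a stop in the exon in 43 (13.6%), and in 49 (15.5%) the frame was kept with no stop, so those 49 read as coding sequence that the annotation does not list. The new stop lay more than 50 nt before the last exon junction, the usual condition for nonsense-mediated decay, in 203 of the 225 (90.2%) and in 27 of the 43 (62.8%). By sequence, the name poison exon holds for most of the class and not for the 49 frame-keeping exons. The rule left out every exon with annotated coding sequence, so these shares describe the chosen exons and are no test of the name. Of the 359 exons, 155 are annotated with the same ends and 26 of them in a transcript marked as a decay target. The rule itself lowers this 26. It counted the coding sequence of such transcripts as coding, which left out 120 assayed exons with coding overlap only there.

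The stop codons of 7 exons are shown because they are what makes these exons poison exons: 3 from the exons with the largest gains in PSI, 2 from those with the largest losses and 2 from splicing factors. Each line gives up to 30 nt of the exon on the transcript strand of mm9 with the in-frame stop in capitals. The exons are those of Invs (chr4:48404177-48404286, plus strand), Ptch1 (chr13:63638790-63638916, minus), Ccdc88c (chr12:102163422-102163860, minus), Ankrd55 (chr13:113107922-113108027, plus), Hibch (chr1:52908614-52908745, plus), Srsf2 (chr11:116712962-116713065, minus) and Tra2a (chr6:49202802-49203107, minus).
Invs: gccatctctttcTGActaaactgaagatgc
Ptch1: tacTGAtggttcatcaaggcaaactctcct
Ccdc88c: attggggatttcTGAtcccctcctttacca
Ankrd55: gaTAAaggcatctggagatacagtcatcac
Hibch: tgccagagtgttTAGatcatggaaggctaa
Srsf2: tattgcagatttTAActgatttggctgatc
Tra2a: agattggtcagaTAGaagcacttgaatatt

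The 3′ splice sites of 14 exons are shown because the intron end is where a pyrimidine tract lies, as the last 25 nt of the intron and the first 5 nt of the exon, with the AG of the splice site in capitals. They are taken in order of the difference in PSI among exons with a junction interval apart from 0: 6 of the 8 largest gains between coding exons (all but Malt1 and A730017C20Rik), the 4 largest gains upstream of the start codon, and the 2 largest losses in each class. The letters vary within the gains, from nearly unbroken pyrimidines in Acvr1 and Ptch1 to A-rich stretches in Trp53i11 and Ccdc88c. Positions of exons not yet given are Mark4 chr7:20014455-20014534 (minus), Mbnl2 chr14:120802558-120802593 (plus), Osbpl9 chr4:108780486-108780554 (minus), Kbtbd3 chr9:4313702-4313806 (plus), Cflar chr1:58770415-58770503 (plus), Trp53i11 chr2:93029246-93029380 (plus), Acvr1 chr2:58368435-58368711 (minus), 5730419I09Rik chr6:142967848-142967949 (minus), Slc7a7 chr14:55030422-55030483 (minus) and Hivep2 chr10:13724007-13724081 (plus).
Mark4: ccactcccacctccttaccccgcAGggtta
Invs: tcggatcctctcttttgtttcatAGaagcc
Mbnl2: ccctccccccattgcatgacttcAGggtca
Osbpl9: ctctctcttcttacctttatggaAGatcag
Ptch1: cattctctctctcctctccactcAGtactg
Ccdc88c: tcctgtcacaatgataacaatttAGcattc
Kbtbd3: tgtttattctattttttgaggtaAGgtttc
Cflar: ctgctcctctctgtgttctttccAGtgtct
Trp53i11: taaaaaaaatactattttcctgtAGgatct
Acvr1: ctttttttcttctcttcctctgcAGcctct
Ankrd55: ccctcccatgtatcctcccatgcAGgataa
5730419I09Rik: ctttgtttcctgtctgtgtttccAGcaacg
Slc7a7: gaactgtctctgactatttctgtAGaataa
Hivep2: gtaatacgaaacttcttgtcagcAGattgg

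Inclusion of noncoding exons was low. The median PSI was 23.8 with shControl and 25.1 with shptbp1, against 57.8 and 58.5 over all assayed cassette exons and 72.3 and 71.8 over the 2582 assayed exons over 30 nt that overlap coding sequence. Exons between coding exons were lowest, with medians of 14.6 and 16, and 220 of the 359 (61.3%) had a PSI under 20 with shControl. Exons upstream of the start codon had medians of 30.8 and 30.6, and 178 of 514 (34.6%) were under 20. The rule used PSI, so these levels describe the chosen exons.

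PSI was higher by 5 points or more with shptbp1 for 221 of the 959 exons (23.04%) and lower by as much for 243 (25.3%). Over all 3790 assayed cassette exons the same shares were 27.8% and 25.3%. Requiring also that the 95% Newcombe interval of the difference in junction PSI (inclusion from junction reads alone) lie on the same side of 0 left 73 higher and 81 lower exons, 7.61% and 8.45% of the members, where 14.7% and 11.2% of all assayed exons met this. The median difference in PSI was -0.10 points, the same as over all assayed exons. No meaning is read from these shares, since the rule used both libraries and the members had fewer junction reads.

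The 2 main classes had different counts. Among exons upstream of the start codon, 111 (21.6%) were higher by 5 points or more and 140 (27.2%) lower, with a median difference of -0.40 points (quartiles -5.60 and 3.68). With the interval on the same side of 0 there were 19 higher (3.70%) and 47 lower (9.14%). Between coding exons, 95 (26.5%) were higher and 74 (20.6%) lower, with a median difference of 1.4 points (quartiles -3.75 and 5.30). Of these, 51 higher (14.2%) and 25 lower (6.96%) had the interval on the same side, as percents of the 359 exons. Over all assayed exons 27.8% were higher and 25.3% lower, and 14.7% and 11.2% with the interval on the same side. Lower exons thus outnumbered higher ones upstream of the start codon. Between coding exons the higher ones were more numerous, as over all assayed exons, and their shares were near those of all assayed exons. The difference between the classes could not be tested with 1 library per condition.

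**Figure D1:**
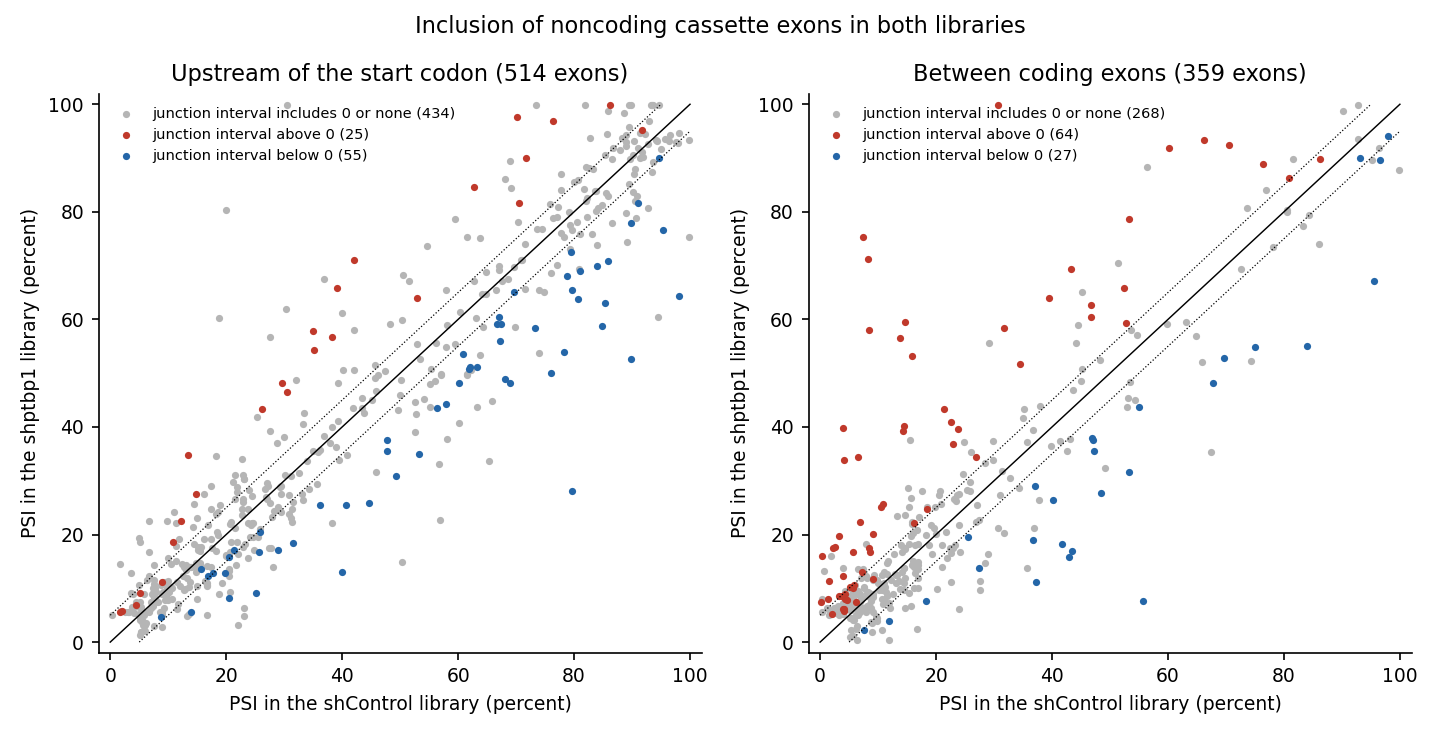
PSI of each noncoding cassette exon in the shControl library (x axis, percent) and in the shptbp1 library (y axis, percent), for the 514 exons upstream of the start codon (left) and the 359 between coding exons (right). Dotted lines mark a difference of 5 points, red points are the 25 and 64 exons whose junction interval lies above 0, blue points the 55 and 27 whose interval lies below 0, and grey points all others.

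Within the exons between coding exons, the 225 with an in-frame stop had a median PSI of 13.7 with shControl and 13.1 with shptbp1. PSI was higher by 5 points or more for 51 of them (22.7%) and lower for 39 (17.3%). The 43 that shift the frame without a stop of their own had medians of 8.60 and 13.3, with 11 higher (25.6%) and 8 lower (18.6%). The 49 that keep the frame had medians of 18.5 and 29.1, with 22 higher (44.9%) and 15 lower (30.6%). The frame-keeping exons thus had the highest shares in both directions, above the 27.8% and 25.3% of all assayed exons. Stop-bearing and frame-shifting exons lay below these shares in both directions. All of these are counts without a test.

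**Figure D2:**
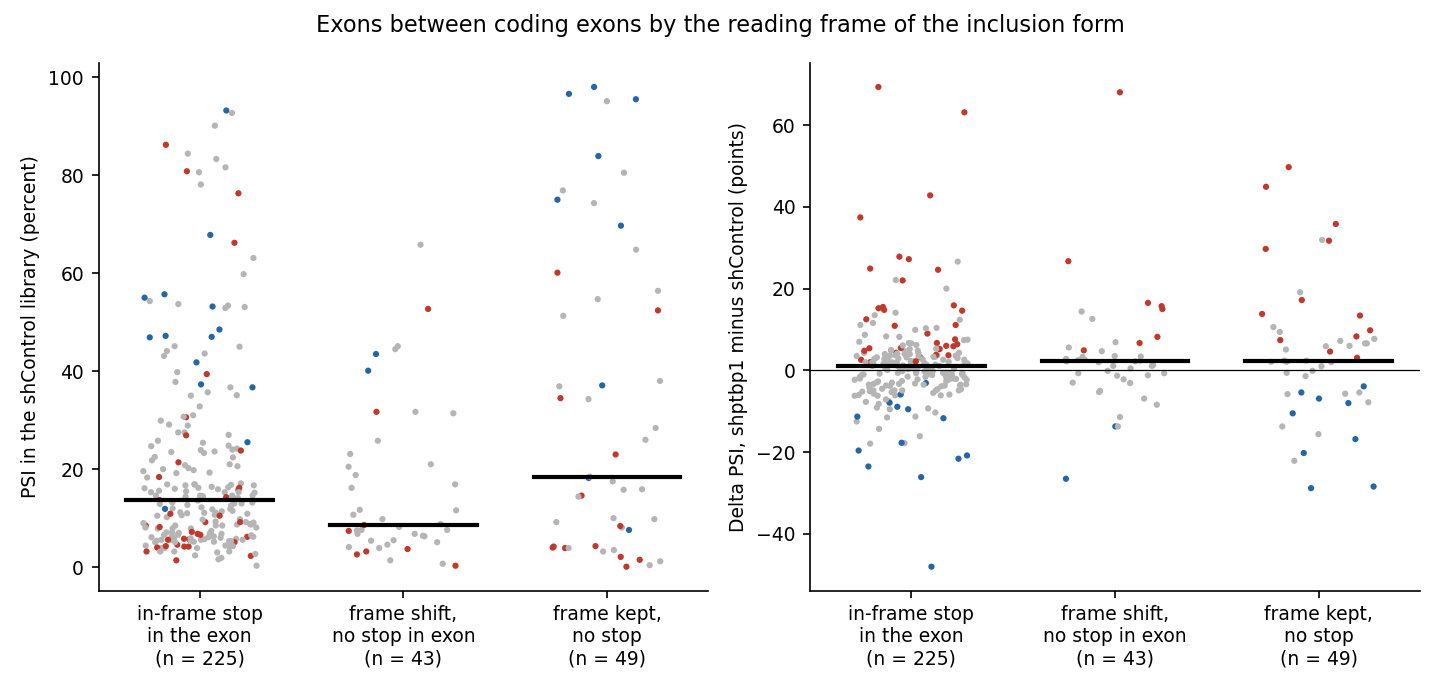
PSI in the shControl library (left, percent) and difference in PSI, shptbp1 minus shControl (right, points), of the exons between coding exons, by what inclusion does to the reading frame. Each point is 1 exon, horizontal bars are medians (13.7, 8.60 and 18.5 on the left), and red or blue points have a junction interval above or below 0; most exons with an in-frame stop lie under a PSI of 20 with shControl (151 of 225).

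The largest gain between coding exons was in Malt1, which encodes the paracaspase of NF-kappaB signalling, in an exon of 79 nt with an in-frame stop. Its PSI was 30.6 with shControl and 99.9 with shptbp1. The shControl library had 2 and 9 reads on the junctions 5′ and 3′ of the exon and 10 on the skipping junction, and the shptbp1 library had 1 and 21 against 0. The interval of the difference in junction PSI was 27.3 to 81.5 points.

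In Mark4, a kinase that phosphorylates microtubule-associated proteins, an exon of 80 nt that shifts the frame had a PSI of 7.40 with shControl and 75.4 with shptbp1. Inclusion junctions held 2 and 0 reads against 17 skipping reads with shControl, and 27 and 13 against 8 after knockdown, a difference of 38.5 to 80.0 points. The frame shift of this exon carries translation to a stop beyond the last exon junction, so the distance condition for decay is not met. Invs encodes inversin, a protein of the primary cilium. Its exon of 110 nt, whose TGA is shown above, had a PSI of 8.20 with shControl and 71.3 with shptbp1, with 35 and 2 skipping reads and an interval of 30.7 to 85.7 points.

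Ptch1, the receptor of Hedgehog ligands, had the deepest of these large gains. The exon of 127 nt meets a TGA 4 nt in, 2197 nt before the last exon junction, and is not annotated. Its PSI was 13.7 with shControl and 56.5 with shptbp1. Junction reads were 30 and 24 for inclusion and 180 for skipping with shControl, and 101 and 91 against 80 with shptbp1. Junction PSI was 13.04% (95% Wilson interval 9.12 to 18.3) and 54.5% (47.2 to 61.7), a difference of 32.4 to 49.7 points.

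Ccdc88c encodes a protein that binds Dishevelled. Its exon of 439 nt had a PSI of 15.8 with shControl and 53.2 with shptbp1, with an interval of 9.48 to 50.9 points. The log2 FPKM ratios of the 5 genes with these stop-bearing or frame-shifting exons were -1.14 for Invs, -0.88 for Ptch1, -0.10 for Mark4, -0.03 for Ccdc88c and -0.0025 for Malt1, beside a median of -0.03 over 10770 genes. Of these, Invs and Ptch1 were the lowest. A link between the exon and the gene's level was not tested. Another 3 of these 8 exons keep the frame and hold no stop, so they are not poison exons by sequence. The Mbnl2 exon of 36 nt lies in the gene of a muscleblind splicing regulator and had a PSI of 8.40 with shControl and 58.1 with shptbp1, on 89 and 41 skipping reads (30.5 to 54.3 points). The Osbpl9 exon of 69 nt, in a gene of the oxysterol-binding protein family, had a PSI of 14.6 and 59.5 (15.4 to 56.6 points), and that of A730017C20Rik, 51 nt long, 4.0 and 39.8 (12.99 to 61.4 points).

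Of the 6 largest losses between coding exons, that of Ankrd55 (-48.0 points) was larger than the gain of Osbpl9 (44.9 points). None reached the gain of Mbnl2 (49.7 points). In Ankrd55, an ankyrin repeat gene, PSI was 55.7 with shControl and 7.70 with shptbp1, but this exon rests on 1 and 3 inclusion reads against 3 skipping reads with shControl and 1 and 0 against 14 after knockdown. The exon of Hibch, an enzyme of valine breakdown, had a PSI of 37.3 with shControl and 11.2 with shptbp1, with 24 and 19 inclusion reads against 38 skipping reads, then 3 and 6 against 34 (-40.3 to -8.62 points). Both exons carry the in-frame stops shown above. The zinc finger gene Zfp952 had an exon that shifts the frame at 43.5 and 17.0 (-49.6 to -18.3 points).

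Exons that keep the frame were among the losses as well. Fam135a had an exon of 78 nt at a PSI of 95.5 with shControl and 67.1 with shptbp1, with 6 and 34 skipping reads and an interval of -35.2 to -16.7 points. The exon of 5730419I09Rik was at 83.9 and 55.1, where the difference in junction PSI was -14.5 points (-24.5 to -4.98), a smaller difference than in PSI. For Fbxo34, an F-box gene, the frame could not be determined, and PSI was 43.0 and 15.8 (-41.4 to -5.04 points), with an average of -13.6 points over its 2 trios.

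**Figure D3:**
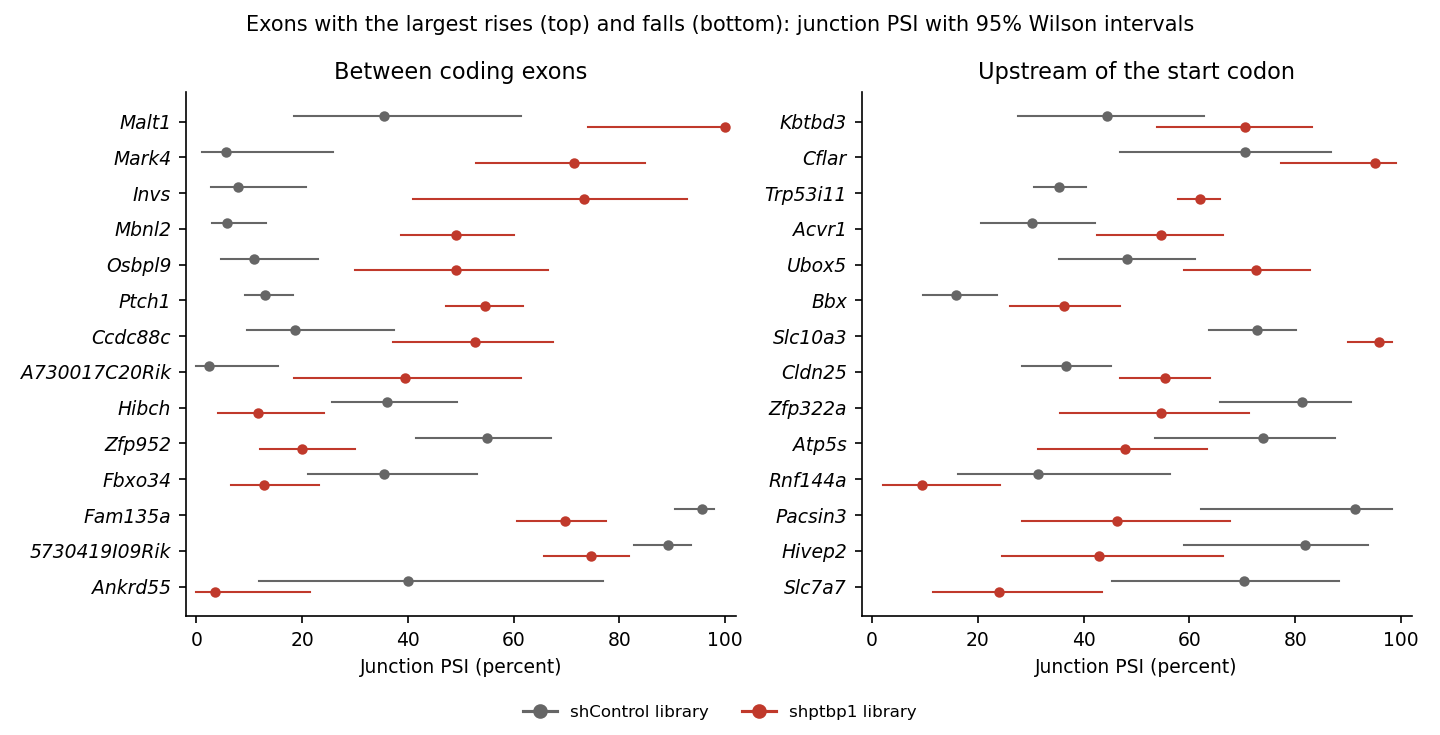
Junction PSI (percent) of the 8 exons with the greatest gain and the 6 with the greatest loss of PSI between coding exons (left) and upstream of the start codon (right), among those with a junction interval on the same side of 0. Grey points are the shControl library and red points the shptbp1 library, with 95% Wilson intervals of the junction reads; the bars of some exons, Ankrd55, Fbxo34, Kbtbd3, Cflar and Rnf144a among them, overlap between libraries although the interval of the difference excludes 0.

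Upstream of the start codon, the named gain with the most junction reads was in Trp53i11, a gene named for its induction by p53. Its exon of 135 nt had a PSI of 39.1 with shControl and 65.8 with shptbp1. Inclusion junctions held 83 and 172 reads against 233 skipping reads, then 270 and 435 against 216, which is a difference of 20.02 to 32.7 points. Slc10a3, a member of the bile acid transporter family, had an exon of 69 nt at 76.4 and 96.8, with 30 skipping reads with shControl and 4 with shptbp1 (13.7 to 32.5 points).

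In Acvr1, a type I receptor of bone morphogenetic proteins, the exon of 277 nt had a PSI of 34.9 with shControl and 57.8 with shptbp1 (7.39 to 39.5 points). In Bbx, an HMG-box gene, the exon of 114 nt was at 13.4 and 34.8, with 88 and 50 skipping reads (7.80 to 33.0 points). Ubox5, a ubiquitin ligase gene, had an exon at 62.7 and 84.6 (5.66 to 40.8 points). Its 5′ and 3′ junctions held unequal counts, 50 and 2 reads with shControl and 68 and 6 with shptbp1. Among exons with an interval above 0, the 2 largest gains had intervals that reach close to 0: Kbtbd3 went from 42.1 to 71.1 with an interval of 1.37 to 47.2 points, and Cflar, which encodes an inhibitor of caspase-8 activation, from 70.2 to 97.7 with an interval of 0.55 to 48.7 points.

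The largest loss of all members was in Slc7a7, a light chain of an amino acid transporter, whose exon of 62 nt had a PSI of 79.7 with shControl and 28 with shptbp1. It rests on 3 and 16 inclusion reads against 4 skipping reads, then 5 and 7 against 19 (-68.4 to -14.9 points). Averaged over the 2 trios that hold the exon, the difference was -25.85 points. Hivep2, a zinc finger transcription factor, had an exon at 89.9 and 52.6, with 3 and 10 skipping reads (-60.9 to -5.91 points). Pacsin3, an adaptor of endocytosis, was at 98.1 and 64.3, with 1 and 11 skipping reads (-64.0 to -8.35 points), and its average over 2 trios was -16.9 points. None of these 3 exons had more than 19 skipping reads in either library, and each interval spans over 50 points. The FPKM of Slc7a7 is listed at 0 with shControl, so no ratio is given for it.

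Rnf144a, a RING finger ubiquitin ligase gene, had an exon at 40 with shControl and 13.1 with shptbp1 (-49.2 to -1.95 points). Zfp322a was at 84.8 and 58.8 (-47.9 to -4.08 points), and Atp5s, a factor of the mitochondrial ATP synthase, at 76 and 50 (-47.5 to -0.81 points). The 5′ and 3′ junctions of the Atp5s exon held unequal counts, 2 and 32 reads with shControl and 0 and 33 with shptbp1.

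Tbp, which encodes the TATA-binding protein, showed movement in both directions within 1 untranslated stretch, and was chosen for description after its values were seen. An exon of 49 nt (chr17:15638118-15638166) had a PSI of 29.7 with shControl and 48.2 with shptbp1 (4.86 to 25.6 points). A second exon of 46 nt that follows it (chr17:15638276-15638321) was at 78.3 and 54.0 (-41.2 to -18.2 points). The form of 204 nt that spans both was at 45.6 and 49.1, with an interval that includes 0 (-7.27 to 11.2 points). These exons share junction reads, so their values are not independent. Of all genes with a member, 4 held 1 exon higher and 1 lower by 5 points or more with the interval on the same side, and the others were Ccdc97, Nudt13 and Rsrc2. In Rsrc2, an exon of 99 nt between coding exons went from 43.2 to 69.3 and another of 93 nt from 47.2 to 35.5.

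Cldn25, a claudin gene, is an example of a cluster. Its 3 overlapping exons share their 3′ end and differ at the 5′ end, at lengths of 44, 51 and 66 nt, and had PSI of 35.1, 38.2 and 30.5 with shControl and 54.4, 56.7 and 46.5 with shptbp1. The same 77 and 56 skipping reads enter all 3 values.

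Exons upstream of the start codon differed from coding exons in sequence as well. Their length was a multiple of 3 in 32.1% against 37.6% of the exons between coding exons and 55.7% of those that overlap coding sequence. An ATG was present in 360 of the 514 (70.0%), a lower share than in the other groups. It was 75.2% between coding exons, 80.0% for exons that overlap coding sequence and 74.95% over all assayed exons. The exact exon was annotated for 367 of the 514, against 155 of the 359 between coding exons.

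After the stop codon, Hnrnpa2b1, an RNA-binding protein gene, had an exon of 136 nt at a PSI of 62.1 with shControl and 74.1 with shptbp1, with 594 and 336 skipping reads (8.94 to 16.4 points). Hnrpdl, a related gene, had an exon of 105 nt at 30.4 and 37.5, on 1569 and 1102 skipping reads (4.05 to 9.95 points), and Tbccd1 one at 10.6 and 21.8 (1.35 to 21.0 points). The exon of Sugp2, which encodes a protein with SURP and G-patch domains found in splicing factors, went the other way, from 77.6 to 55.6, with 37 and 82 skipping reads (-30.1 to -10.6 points). The Hnrnpa1 exon of 1711 nt was at 90.1 and 85.5 (-3.60 to -1.69 points), but its 5′ junction had 15938 reads with shControl and its 3′ junction 135, so its junction PSI averages very unequal counts.

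Among genes with no coding sequence, 7 of 54 exons (12.96%) were higher by 5 points or more and 17 (31.5%) lower. The shares of all assayed exons were 27.8% and 25.3%. None of the 7 had an interval above 0, where 14.7% of all assayed exons were higher with such an interval. An interval below 0 was found for 6 of the 17, which is 11.1% of the 54 exons beside 11.2% of all assayed exons. The 3 largest of these losses were in long noncoding RNAs: Mirg from 76.3 to 34.2 (-62.7 to -10.4 points), Meg3 from 54.9 to 17.7 (-60.5 to -14.4 points) and Pvt1 from 91.5 to 79.5 (-41.2 to -6.81 points). Mirg and Meg3 are imprinted RNAs of the same region of chromosome 12. The Meg3 exon had 9 skipping reads with shControl and 33 with shptbp1. The Pvt1 exon had 81 reads on its 5′ junction and 0 on its 3′ junction with shControl, and 54 and 3 with shptbp1. For Mirg these were 1 and 19, then 0 and 16, so the junction PSI of both exons averages very unequal counts.

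Splicing factor genes are known for poison exons, and every member in 4 lists was described. Of 3 exons in SR and Tra2 genes, 1 was higher by 5 points or more and none lower, beside 27.8% and 25.3% of all assayed exons. It was that of Tra2a, a splicing activator, whose exon of 306 nt with an in-frame TAG was at 26.9 with shControl and 34.5 with shptbp1, with 703 and 493 skipping reads (4.08 to 11.97 points). Srsf2 was at 6.20 and 7.40 on 7161 and 5118 skipping reads, a difference of 0.30 to 1.78 points. Srsf7 was at 19.6 and 21.3 (-0.36 to 4.75 points). The Srsf2 exon has its stop 92 nt before the last junction, and Srsf7 and Tra2a have theirs 708 and 964 nt before it.

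Of 9 exons in hnRNP genes, 2 were higher and 2 lower by 5 points or more (22.2% each way), no more than over all assayed exons (27.8% and 25.3%). The higher ones were those after the stop codon of Hnrnpa2b1 and Hnrpdl. Lower were untranslated exons of Raly, at 61.8 and 50.7 on 771 and 833 skipping reads (-13.2 to -6.44 points), and of Hnrnph2, at 47.8 and 35.6 (-15.4 to -4.17 points). The 3 overlapping exons upstream of the start codon of Hnrnpc, of 229, 530 and 1223 nt, had PSI differences of 1.80 to 2.40 points. By junction reads, the exon of 1223 nt differed by 7.29 points (4.58 to 10.1) and that of 530 nt by 4.63 points (1.67 to 7.64), while the interval of the exon of 229 nt included 0 (-0.54 to 5.08 points). Hnrnpk was at 9.80 and 10.0. The 5′ junction of its exon had 0 reads with shControl and 1 with shptbp1, and the 3′ junction 359 and 270. Its junction PSI thus averages very unequal counts.

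Of 18 exons in other spliceosomal and RNA-binding protein genes, 5 were higher (27.8%) and 2 lower (11.1%) by 5 points or more, where the share of all assayed exons was the same for higher and 25.3% for lower. With an in-frame stop, Srrm1 was at 16.2 with shControl and 22.2 with shptbp1 (0.77 to 7.12 points) and a Tial1 exon of 60 nt at 5.10 and 10.3 (1.79 to 6.71 points). Prpf39, a U1 snRNP-associated protein gene, had a stop-bearing exon at 46.9 and 38.0 (-16.5 to -1.18 points). Dhx9, an RNA helicase gene, was at 9.20 and 11.8 (1.963 to 7.57 points). Mbnl2, described above, had the largest change, and its paralog Mbnl1 had a frame-keeping exon of 54 nt at 64.8 and 57.0 with an interval that includes 0 (-16.3 to 1.89 points). Snrpn, from 5.00 to 19.4, and Puf60, from 35.0 to 41.7, rest on under 10 skipping reads a library, and for Puf60 the difference in junction PSI was -13.5 points.

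The Snrnp70 exon was at 15.7 and 13.6 (-3.74 to -0.08 points). The remaining members of the list, in Celf1, Elavl1, Rbm25 with 2 exons, Rbm6, Tia1, a second Tial1 exon, a second Snrpn exon and a second Mbnl1 exon, had intervals that include 0. Of 2 exons in genes of the decay and exon junction machinery, Rnps1 was at 5.6 and 7.0 (-1.54 to 4.32 points) and Smg6 at 0.40 and 8.10, the latter on 1 inclusion read in all.

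**Figure D4:**
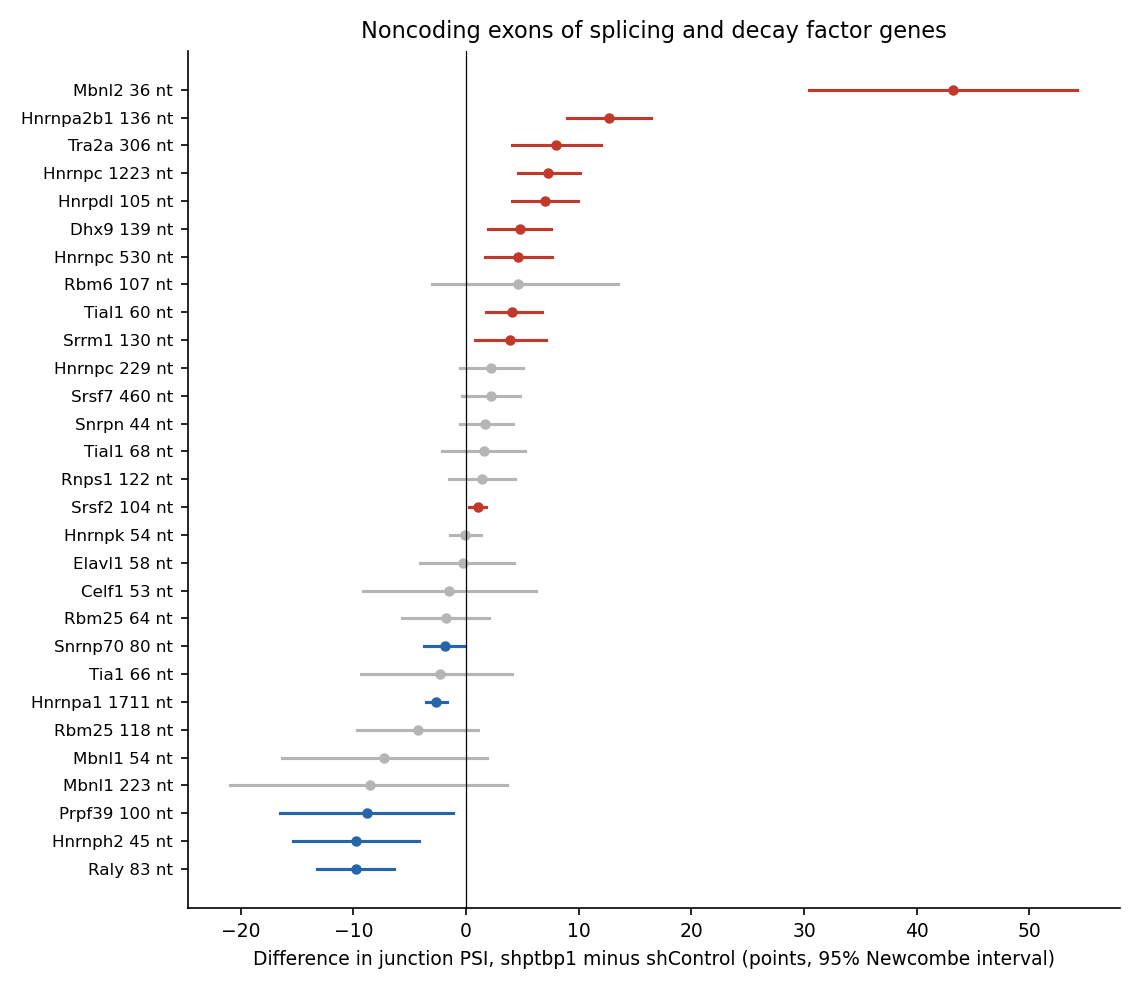
Difference in junction PSI, shptbp1 minus shControl (points), with 95% Newcombe intervals, for noncoding exons in genes of SR and Tra2 proteins, hnRNPs, other splicing factors and decay factors, labelled by gene and exon length. Red intervals lie above 0, blue below 0 and grey include 0; the exons of Puf60, Smg6 and the Snrpn exon of 104 nt, with few reads, are not drawn, and Mbnl2 lies farthest from 0 at 43.3 points.

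The 41 noncoding exons in zinc finger genes, 28 of them upstream of the start codon, had 14 higher and 11 lower by 5 points or more (34.1% and 26.8%), beside 27.8% and 25.3% of all assayed exons. With the interval on the same side of 0 there were 4 higher, in Zfp81, Zfp239, Zfp672 and Zfp821, and 3 lower, in Zfp952, Zfp322a and Zfp948, of which all but Zfp952 and Zfp322a are named after their values were seen. Of 16 exons in chromatin genes 4 were higher and 3 lower, none with an interval on the same side, and of 5 in translation genes none moved by 5 points. No member lay in the listed host genes of small nucleolar RNAs.

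The sequence upstream is independent of the rule. In the 100 nt upstream, the median content of C or T was 56.0% for the members, 57.0% between coding exons, 56.0% upstream of the start codon and 57.0% over all assayed exons. The motif TCTT was searched on the transcript strand alone and was present upstream of 63.7% of the members and 65.0% of all assayed exons. CTCTCT, which can overlap TCTT, was present upstream of 11.1% and 12.5%. Taken over all members, the upstream sequence was thus close to that of other cassette exons.

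The composition was also taken by the direction of the change. The 51 exons between coding exons that were higher with an interval above 0 had a median of 65.0% C or T, and TCTT upstream of 82.4%, while the 25 lower ones had 58.0% and 76.0% and the 190 that moved by under 5 points had 56.0% and 60.5%. CTCTCT there was nearly as common in each, upstream of 15.7%, 12% and 13.2%. Upstream of the start codon the 19 higher exons had 60.0% C or T, the 47 lower ones 54.0% and the 263 others 55.0%. TCTT preceded 73.7% of those 19, 59.6% of the 47 and 63.5% of the 263, and CTCTCT 31.6%, 10.6% and 4.56%. Over all assayed exons, the 557 higher ones had 65.0% and TCTT upstream of 79.5%, the same median as for the 51 exons between coding exons. The long runs include one of 43 pyrimidines upstream of the Ccdc88c exon and one of 17 upstream of the Ptch1 exon. Long runs also preceded exons without an interval above 0. They were of 38 in Puf60 (interval includes 0), 23 in Snrnp70 (interval below 0) and 22 at the Rsrc2 exon of 75 nt (interval includes 0). A match describes letters and does not show that Ptbp1 was bound.

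**Figure D5:**
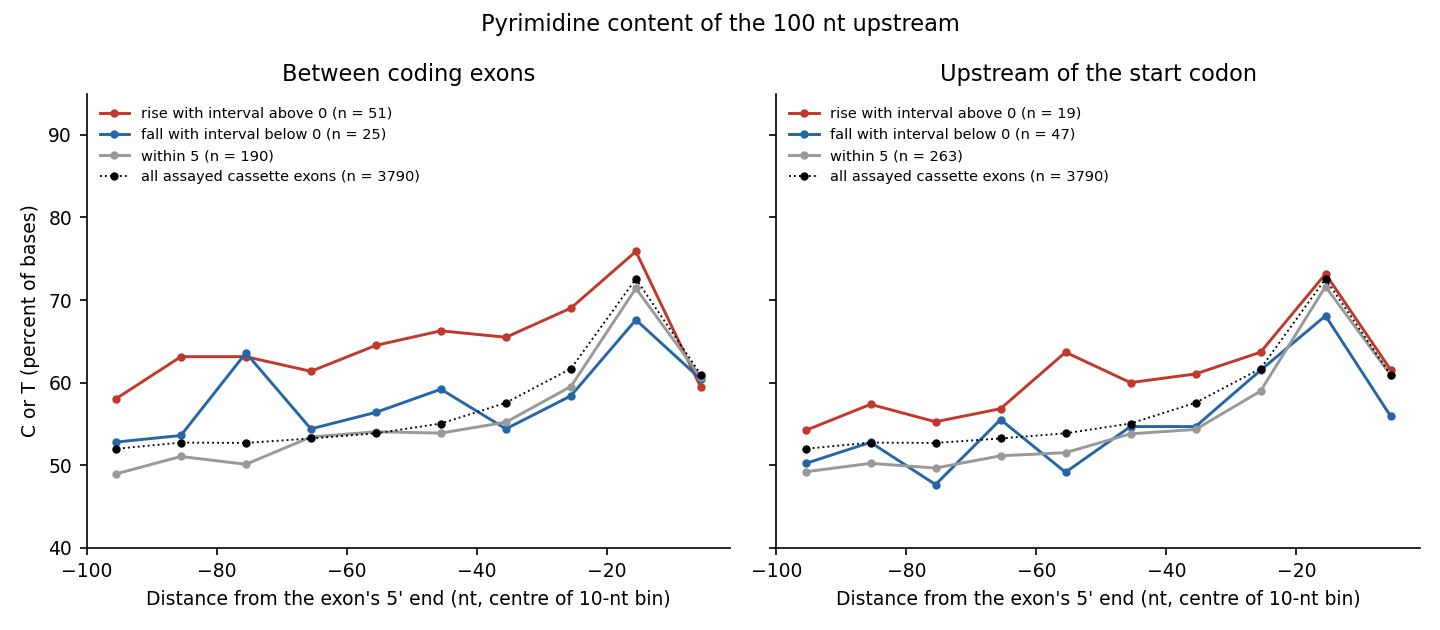
Percent of bases that are C or T (y axis) in 10-nt bins of the 100 nt upstream of the exon (x axis, distance from the exon's 5′ end in nt), between coding exons (left) and upstream of the start codon (right). Red, blue and grey lines are exons higher, lower or within 5 points, and the dotted black line is all 3790 assayed exons; between coding exons the red line is at 58.0% in the bin farthest from the exon, where the dotted line is at 52.0%.

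Cufflinks gave a second estimate from the same reads, as the FPKM of isoforms that join the exon to both flanks over its sum with that of isoforms that join the flanks directly. Both forms were above 0 in both libraries for 219 members. Of the 122 of these that moved by 5 points or more in PSI, 92 moved the same way in this share, and of the 46 with an interval on the same side of 0, 37 did. The share for Ptch1 was 12.4% with shControl and 52.3% with shptbp1, and that for Bbx 6.43% and 33.0%. Exons whose share went the other way from PSI include those of Meg3 (33.3% and 41.3%), Zfp239 (56.1% and 43.0%) and Exd1 (61.3% and 51.9%). The exon was an internal exon of an assembled or RefSeq transcript for 490 members with shControl and 494 with shptbp1.

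Gene levels were set beside the exons that stop or shift the frame. The log2 FPKM ratio had a median of -0.17 (quartiles -0.45 and 0.15) over 49 genes whose exon was higher by 5 points or more, -0.01 (-0.19 and 0.38) over 35 genes whose exon was lower, and -0.14 (-0.36 and 0.14) over 112 genes whose exon moved by less. The quartiles of these groups overlap widely. Over all 565 genes with a member and an FPKM above 0 in both libraries the median was -0.10, against -0.03 over 10770 genes. Dividing FPKM by each library's median, without a pseudocount, added 0.148 to the log2 ratios, which put the medians at 0.045 and 0.116, so their sign depends on this scaling and their order does not. The part of decay in these levels was not tested.

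The 5 members with the largest differences among those whose interval includes 0 were Wiz, from 30.4 to 99.9 (-8.63 to 90.3 points), Exd1, from 20 to 80.4, Slc25a14, from 18.7 to 60.3, Slc37a3, from 50.3 to 14.9, and Nin, from 56.8 to 22.7. None of them had more than 14 skipping reads in a library. Of the 462 members that moved by 5 points or more and had a junction PSI in both libraries, 441 (95.5%) moved the same way in junction PSI.

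The limits of the rule cut through a continuum. Just inside the limit of 20 reads were exons of Acpl2 (20 and 38 reads) and Rfx3 (33 and 20), and just outside it those of Fam170a (19 and 54) and Zfx (30 and 19). At a PSI of 5, Atf7ip (5.00 and 4.80) and Spata2 (0.30 and 5.00) were inside and Ptk2 (4.1 and 4.9) and 4933431E20Rik (4.9 and 2.8) outside. At 95, Gnaz (98.1 and 94.6) and Tceb1 (94.6 and 99.9) were inside and Med7 (95.2 and 99.0) and Dram2 (95.2 and 98.9) outside. In all, 2221 noncoding exons over 30 nt were in the cassette class, of which 747 had under 20 reads in a library and 515 had PSI outside 5 to 95 in both, 423 of these under 5.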

How the data were processed

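Strand-specific paired reads of 100 bases from 1 library per condition were processed by the authors. With SpliceTrap they deposited, for each exon trio on mm9, the share of transcripts with the middle exon (a fraction, with and without its model correction), a read count for each junction, and the coverage signal in reads per 100 nt. From Cufflinks the authors deposited FPKM of genes and isoforms, on an unusual scale and used only as ratios. TopHat and CASAVA are named in the submitters' processing notes. Trios were those whose identifier gives the cassette class.

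PSI was the corrected fraction times 100. Of 10962 cassette trios, 9319 exons were kept, each by the trio with the most reads. Coding sequence, including that of transcripts marked as decay targets, came from GENCODE vM1 on NCBIM37, which is mm9. An exon was upstream of the start codon or after the stop codon when it lay wholly outside the span of its gene's coding sequence. For junction PSI, reads of the 2 inclusion junctions were averaged and divided by that average plus the skipping reads, the average being rounded to whole reads for 95% Wilson and Newcombe intervals. These cover counting error only, and PCR duplicates are not independent molecules. A pseudocount of 1 was added to FPKM before log2 ratios, and genes were matched through RefSeq transcripts. No test was run. The intervals were also run on simulated junction reads, drawn from the counting model that they assume at the members' read numbers. That run cannot show whether they hold where the 2 inclusion junctions are unequal or reads are duplicates.

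Named were the 8 largest rises and 6 largest falls in each main class with an interval on the same side of 0, 3 and 3 in the other classes, every member in 4 splicing and decay lists, the 5 largest changes with an interval including 0, and exons next to the limits. The members and lists were chosen with earlier results of these data known. Tables were handled with pandas 2.3.3 and NumPy 2.4.6 under Python 3.11.15, sequences with pysam 0.24.0 and plots with matplotlib 3.10.9.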

Additional observations from a re-analysis of the deposited data

How the results depend on the processing

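No paired analysis was possible because each condition is 1 library, and for the same reason no library could be left out. Of the counts and medians recomputed under other settings, 10 moved by over 1.5 times (counts) or beyond the counting range of the median, and the median log2 FPKM ratio changed sign. The median difference over all members, -0.10 points, lies so near 0 that it was 0.10 when coding sequence of decay transcripts was not counted, an alternative chosen after seeing the data, and 0.0 with no limit on PSI, where the median upstream of the start codon was -0.10 in place of -0.40. With no limit on PSI, 1474 noncoding exons were kept and the median difference between coding exons was 0.20 points, since exons under 5 or over 95 in both libraries enter. A threshold of 10 points left 119 higher and 127 lower exons, of which 59 and 70 were upstream of the start codon and 52 and 37 between coding exons. Junction PSI gave a median of -1.02 points upstream of the start codon. The median content of C or T was 60.0% in the 50 nt upstream. Dividing FPKM by each library's median gave a median log2 ratio of 0.045 for genes with a member, beside 0.116 over all genes (no pseudocount, chosen after seeing the data). With a pseudocount of 1 on the scaled values, which compresses the ratios, these were 0.023 and 0.007. Averaging over all trios of an exon brought Slc7a7 from -51.7 to -25.85 points, Pacsin3 from -33.8 to -16.9 and Fbxo34 from -27.2 to -13.6, and junction PSI took Pvt1 from -12 to -24.9 points, the Snrpn exon of 104 nt from 14.4 to 35.2 and Srrm1 from 6.0 to 3.90. Among the exons named, the sign changed for Celf1 (-0.10 points before SpliceTrap's correction and -1.53 by junction PSI), Hnrnpk (-0.057 by junction PSI) and Puf60 (-13.5 by junction PSI). The causes were not tested. Chosen after seeing the data, a minimum of 20 junction reads in each library kept 827 exons, with 171 higher and 202 lower.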

Other observations

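The annotation gives transcripts marked as decay targets a coding sequence up to their early stop, so 120 assayed exons over 30 nt whose only coding overlap lies in such transcripts were not counted as noncoding. SR and Tra2 genes known for a poison exon are among them. The 120 exons had a median PSI of 10.7 with shControl and 12.2 with shptbp1. Of them, 25 (20.8%) were higher and 15 (12.5%) lower by 5 points or more, both below the 27.8% and 25.3% of all assayed exons. Adding them, a setting chosen after seeing the data, gave 1079 exons with 246 higher and 258 lower.

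The exons named here were chosen after their values were seen. The exon of 456 nt in Srsf3, an SR protein gene, was at 7.80 with shControl and 11.3 with shptbp1, with 2919 and 2018 skipping reads (2.23 to 4.904 points), and that of 276 nt in Tra2b, a splicing activator gene, at 18.3 and 21.4 (0.70 to 6.84 points). The largest gain was in Ccdc64, from 18.1 to 60.2 on 294 and 130 skipping reads (36.4 to 49.4 points), followed by Dennd3, from 10.2 to 43.6 (21.0 to 50.2 points). Snap23, a SNARE protein gene, went from 0.90 to 15.7 (11.3 to 22.0 points). The largest loss in PSI was in Pdgfc, from 60.1 to 8.9, on 4 and 12 skipping reads and with an interval that includes 0 (-70.0 to 0.54 points). Next was Cenpa, the centromeric histone H3 variant, from 42.5 to 22.2 on 669 and 619 skipping reads (-24.0 to -16.0 points).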
